A study of Homo sapiens with 36 samples.

Results

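Cells of the human lung adenocarcinoma line A549 that had lived without IL-1β for 6 days were set against untreated A549 cells of the same collection. The 6 libraries were chosen by their labels alone, as those of time point day 6 posttreatment, 3 from previously IL-1β treated cells and 3 from control cells, out of 36 libraries in 12 groups. The study asked whether cells that had met the cytokine for a long time kept a mesenchymal state once it was gone, which it called EMT memory. The treated cells had grown with IL-1β at 1 ng/ml for 21 days and then without it for 6 days, and the control cells had never received it. Both groups carried no other agent, grew in the same medium and were split every few days, and both stand for 1 established line. Poly(A) RNA was sequenced, and the values are the authors' read counts per Ensembl gene. The labels number the 3 libraries of a group as biological replicates A, B and C without saying that they were separate cultures, so the p-values measure the spread between these libraries, which may be technical.

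IL-1β binds its receptor IL1R1 and, through MYD88 and the IRAK kinases, switches on the transcription factors NF-κB and AP-1, which drive chemokine, cytokine and acute phase genes and also their own inhibitors, such as NFKBIA and TNFAIP3. In epithelial-to-mesenchymal transition (EMT), repressors of the SNAI and ZEB families act on junction genes such as CDH1, which encodes E-cadherin, while matrix and integrin genes become active. A549 cells also express a set of liver-type genes, among them the fibrinogen chains.

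Before any comparison, the 6 libraries stood in 2 classes that crossed the groups. Genes of the mitochondrial genome took 19.2% and 17.7% of the counts on genes in control A and B and 23.0% in IL-1β B, against 7.10% in control C, 6.13% in IL-1β A and 6.56% in IL-1β C. The first 3 libraries, all above 10%, are called high-mitochondrial here and the other 3 low-mitochondrial. The high-mitochondrial libraries were also the shallower ones, with 9116032, 13077473 and 10820116 counts on genes, while control C had 21653670 and IL-1β A and C had 17044927 and 16017831. The 8 markers listed for these epithelial cells summed to 5840.1 to 9903.0 CPM (TMM-scaled counts per 1e6 counts on genes) in control cells and 3410.5 to 6325.1 CPM in IL-1β-withdrawn cells. KRT19 among them was too low to be tested, and of the other 7 KRT18 and CDH1 were lower after withdrawal. Of 8 fibroblast, 8 leukocyte and 5 endothelial markers only 1, 3 and 0 were high enough to test, and none of these passed the test. Summed over each list, fibroblast markers were at 1.55 to 1.99 CPM in controls and 1.85 to 2.2 CPM in IL-1β-withdrawn cells, leukocyte markers at 12.1 to 16.1 and 10.2 to 14.6 CPM and endothelial markers at 0.0859 to 0.259 and 0.273 to 0.405 CPM. In bulk RNA, fewer cells that express a gene and less of its RNA per cell cannot be told apart.

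At 6 days after withdrawal, 346 genes differed between the groups, 207 of them higher and 139 lower in IL-1β-withdrawn cells. These genes passed both thresholds, an adjusted p under 0.05 (the Benjamini-Hochberg value of edgeR's quasi-likelihood test) and a fold change over 2 (a log2 fold change beyond 1), in a model of all 36 libraries. They were 1.8% of the 19180 genes tested, with 1.08% higher and 0.725% lower, and 1840 genes had an unadjusted p under 0.05. Of the 346, 113 changed by more than 4-fold and 36 by more than 8-fold, and 307 were protein-coding. The 3 values of each group did not overlap for 344 of them, the exceptions being SMPD3 and SLC22A4. Since the genes were called on these same values, this describes them and is no separate evidence. Values of 3 against 3 libraries also separate for some genes without any difference. The share without overlap over all genes tested is not given here, so non-overlap of a gene below is a description only. Fitted by themselves with 4 residual degrees of freedom in place of 24, the 6 libraries gave 1 call. In that fit 946 of 16637 genes tested had an unadjusted p under 0.05, against 1840 of 19180 in the model of all 36. With the replicate letters as a block in the fit of the 6 libraries alone, 281 genes were called. In that blocked fit 2077 genes had an unadjusted p under 0.05. The reason for the gap between 1 and 281 calls was not tested. Left out in turn, control C reduced the count to 195 and IL-1β A to 206, and a fit with the mitochondrial class as a covariate raised it to 538.

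The 346 genes had the same direction within both library classes. IL-1β B against control A and B gives the high-mitochondrial value and IL-1β A and C against control C the low-mitochondrial value, and 300 of the 346 were beyond 2-fold in both. Since these genes were called on the same libraries, this is a description of their values. In the covariate fit 335 of the 346 were called, and 162 were called without both A libraries, which leaves 1 library of each class in each group.

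**Figure D1:**
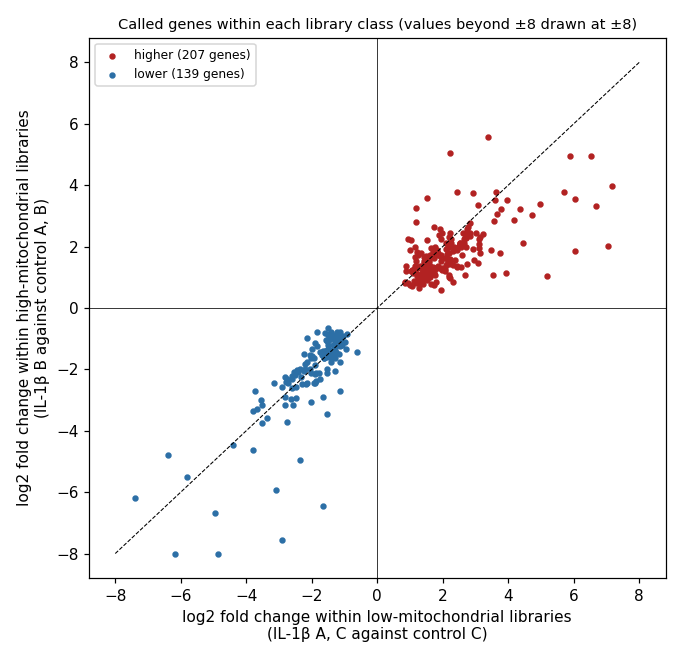
Log2 fold change of the 346 called genes within the low-mitochondrial libraries (x axis) and within the high-mitochondrial libraries (y axis), with 207 higher genes in red and 139 lower genes in blue. Each point is a gene, the dashed line marks equal values, 2 genes beyond 8 are drawn at the edge, and all points lie in the lower left or upper right part.

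The chemokines held the most genes whose response had come down since day 21 of exposure. These secreted attractants of neutrophils and monocytes are direct NF-κB targets. Of 11 tested, 7 were higher and 1 lower at day 21, with a median log2 fold change of 3.77, but only CCL20 and CCL2 were still called 6 days after withdrawal, with a median of 0.50 (0.00 over all genes tested). Counts in this and every later list are to be read beside the shares over all genes tested. These were 1.08% higher and 0.725% lower after withdrawal, and 4.26% called at day 21. Day 21 had its own 3 IL-1β and 3 control libraries, so the 2 responses could be subtracted and the difference tested in the same model. For 26 genes (0.136% of those tested) the difference passed both thresholds, 17 with a lower response after withdrawal and 9 with a higher one, and 6 of the 17 were chemokines.

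CXCL8 (ENSG00000169429, GRCh37 chr4:74606236-74609433), which encodes the neutrophil attractant interleukin 8, had the largest difference of the 26. It stood at 84.5 ± 13.8 CPM (SD, n = 3) in IL-1β cells and 0.697 ± 0.138 CPM in controls at day 21. After 6 days without IL-1β it was at 2.29, 2.32 and 2.66 CPM in IL-1β A, B and C and at 0.258, 1.47 and 0.945 CPM in control A, B and C. The groups did not overlap, yet the log2 fold change of 1.36 ± 0.44 (SE) had an adjusted p of 0.122, and it differed from that of day 21 by -5.55 ± 0.63 (adjusted p = 6.61e-06). CXCL1, another neutrophil attractant, overlapped with the controls, with 2.08, 1.62 and 3.07 CPM in IL-1β A, B and C and 1.68, 2.16 and 3.09 CPM in control A, B and C. Its log2 fold change had gone from 5.43 ± 0.32 to -0.06 ± 0.31, a difference of -5.48 ± 0.43 (adjusted p = 7.61e-09). CXCL3 overlapped likewise, at 6.06, 3.48 and 4.17 against 2.84, 3.54 and 4.47 CPM, with a difference of -3.84 ± 0.43 from day 21 (adjusted p = 6.61e-06). CXCL2, a close relative of CXCL1, did not overlap, at 5.79, 8.93 and 5.56 CPM in IL-1β A, B and C against 3.74, 3.02 and 3.35 CPM in control A, B and C. Its log2 fold change of 0.99 ± 0.24 passed the adjusted p (0.0154) but not the fold threshold, and it differed by -3.21 ± 0.33 from that of day 21 (adjusted p = 1.94e-06).

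Some chemokine expression had stayed above the controls. CCL20, a ligand of the receptor CCR6, was at 2.24, 2.09 and 2.2 CPM in IL-1β A, B and C against 0.774, 0.259 and 0.515 CPM in control A, B and C, without overlap. It was still higher, with a log2 fold change of 2.12 ± 0.46 (adjusted p = 0.00689), after 5.57 at day 21 (difference -3.45 ± 0.66, adjusted p = 0.0121). CCL2, a monocyte attractant, was at 8.68, 13.7 and 5.21 CPM in the IL-1β libraries and at 3.61, 3.37 and 2.06 CPM in the controls, again without overlap. Its log2 fold change was 1.62 ± 0.40 (adjusted p = 0.0187), and the difference of -2.15 ± 0.55 from day 21 did not pass the test (adjusted p = 0.183). The CCL20 call was lost without control B or control C (adjusted p = 0.0543 and 0.0596) and the CCL2 call without control C, IL-1β A or IL-1β B (adjusted p = 0.165, 0.0581 and 0.145). The fall of CCL20 from day 21 lost its call without control A or control C (adjusted p = 0.0832 and 0.116).

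The promoters of these genes are shown because they carry the kind of sequence that NF-κB is known to bind, next to those of TNFAIP3 and IL6. Both TNFAIP3 and IL6 were still called at this time. The difference of IL6 from day 21 was -2.51 ± 0.73 and did not pass the test (adjusted p = 0.443). Each is the 250 bases before the RefSeq start site on GRCh38.p14, written 5′ to 3′ on the strand of the gene, and the capitals mark matches to GGNNNTTCC on either strand, where N is any base.
CXCL8 promoter (chr4:73740319-73740568, plus strand): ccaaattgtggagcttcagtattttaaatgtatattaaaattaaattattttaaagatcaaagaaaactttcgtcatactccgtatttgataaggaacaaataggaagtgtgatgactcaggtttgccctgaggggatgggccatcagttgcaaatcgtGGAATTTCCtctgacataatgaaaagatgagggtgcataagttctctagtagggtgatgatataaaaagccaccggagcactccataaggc
CXCL1 promoter (chr4:73869143-73869392, plus strand): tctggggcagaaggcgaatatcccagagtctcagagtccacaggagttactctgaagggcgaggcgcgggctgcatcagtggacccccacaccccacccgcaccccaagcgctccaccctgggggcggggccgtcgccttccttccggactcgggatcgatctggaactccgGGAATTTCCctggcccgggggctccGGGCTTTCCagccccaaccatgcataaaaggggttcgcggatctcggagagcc
CXCL2 promoter (chr4:74099196-74099445, minus strand): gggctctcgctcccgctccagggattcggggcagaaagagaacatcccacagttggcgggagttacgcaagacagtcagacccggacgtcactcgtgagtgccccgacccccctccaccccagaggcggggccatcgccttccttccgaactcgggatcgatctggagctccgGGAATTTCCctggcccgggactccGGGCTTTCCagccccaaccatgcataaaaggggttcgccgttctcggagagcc
TNFAIP3 promoter (chr6:137867009-137867258, plus strand): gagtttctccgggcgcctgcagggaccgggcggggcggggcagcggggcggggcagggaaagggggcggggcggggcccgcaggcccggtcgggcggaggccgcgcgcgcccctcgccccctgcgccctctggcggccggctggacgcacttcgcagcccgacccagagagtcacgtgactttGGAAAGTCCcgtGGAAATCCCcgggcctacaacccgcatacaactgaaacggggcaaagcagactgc
IL6 promoter (chr7:22726950-22727199, plus strand): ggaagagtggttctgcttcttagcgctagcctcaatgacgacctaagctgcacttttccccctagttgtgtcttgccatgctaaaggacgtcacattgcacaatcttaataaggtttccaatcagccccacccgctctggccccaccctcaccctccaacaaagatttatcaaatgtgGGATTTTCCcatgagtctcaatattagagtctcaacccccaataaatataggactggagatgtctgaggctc
CXCL1 and CXCL2 each held 2 matches, and in both the nearer one began 53 bases before the start site. TNFAIP3 held 2 as well, at 67 and 55 bases before it, and CXCL8 and IL6 each held 1, at 91 and 72 bases. The motif occurred in 17.1% of all 27305 promoters of this length and in 19.5% of the 11641 that belong to tested genes. Of the 17 genes whose response had dropped since day 21, 14 had a promoter in the table and 10 of these (71.4%) held a match. Those 10 were CCL20, CXCL1, CXCL2, CXCL3, CXCL5, CXCL8, LCN2, NFKBIZ, TNFAIP3 and ZNF792. Among the genes called 6 days after withdrawal, 38 of 145 promoters of the higher ones (26.2%) and 17 of 97 of the lower ones (17.5%) held it. The AP-1 motif TGANTCA and the E-box CAGGTG, which SNAI and ZEB factors are known to bind, were searched likewise on both strands. TGANTCA was in 4.28% of promoters of tested genes, in 14 of 145 (9.66%) of the higher genes and in 7 of 97 (7.22%) of the lower genes. CAGGTG was in 15.8% of promoters of tested genes, in 20 of 145 (13.8%) of the higher genes and in 19 of 97 (19.6%) of the lower genes. A match says only that these letters are present, and neither binding nor its part in any change was measured.

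In the list of NF-κB subunits and feedback inhibitors, the response of 4 genes had come down with the chemokines. Of its 20 tested members, 9 were higher at day 21, with a median log2 fold change of 1.07. After withdrawal 2 were higher, with a median of 0.24. TNFAIP3 (ENSG00000118503), the ubiquitin-editing enzyme A20, was at 18.5, 16 and 19.3 CPM in IL-1β A, B and C and at 8.12, 7.0 and 7.21 CPM in control A, B and C. Without overlap, it remained 1.27 ± 0.21 higher on the log2 scale (adjusted p = 0.00047) after 3.21 at day 21, a difference of -1.93 ± 0.30 (adjusted p = 0.000983). TRAF1, a signalling adaptor of TNF receptors, had a log2 fold change of 2.61 ± 0.52 (adjusted p = 0.00311) against 2.45 at day 21. NFKBIA, which holds NF-κB in the cytoplasm, was higher by a log2 fold change of 0.75 ± 0.19, at 63, 49.5 and 66.5 against 38.7, 31.7 and 36.3 CPM, and so passed the adjusted p (0.0274) but not the fold threshold. The other members of the list whose response had fallen overlapped with the controls. These were ZC3H12A, an RNase that degrades cytokine mRNA (log2 fold change -0.03 ± 0.44, difference -3.44 ± 0.63), NFKBIZ, a nuclear IκB protein (-0.42 ± 0.24, difference -2.26 ± 0.34), and TNIP1, a partner of A20 (0.19 ± 0.18, difference -1.45 ± 0.25), and ZC3H12A lost its difference call without control C (adjusted p = 0.052).

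Of 18 tested genes of IL-1 signalling 1 was higher and none was lower, with a list median of 0.11, and of 15 cytokines and colony stimulating factors 3 were higher and none was lower, with a list median of 0.91. Over all genes tested 1.08% were higher. IL1B was at 0.928, 1.62 and 0.637 CPM in IL-1β A, B and C and at 0, 0.259 and 0 CPM in controls, where no library had more than 3 counts, so it was at least 4.12-fold higher (adjusted p = 0.0292). That call was lost without control A, control C, IL-1β A or IL-1β B (adjusted p = 0.0982, 0.265, 0.0811 and 0.0989). The other 17 tested members of IL-1 signalling, ligands, receptors and kinases, did not pass, and the receptor IL1R1 lay at 31.8, 45 and 46.7 CPM in IL-1β cells and 38.4, 44.6 and 44.4 CPM in controls. IL6, the cytokine that induces acute phase genes, was at 33.4, 47.1 and 27.2 CPM in IL-1β A, B and C against 5.03, 6.05 and 2.4 CPM in control A, B and C. Its lowest IL-1β library stood well above its highest control, with a log2 fold change of 3.03 ± 0.54 (adjusted p = 0.00087), after 5.55 ± 0.59 at day 21. The IL6 response was still called 15 and 30 days after withdrawal (2.49, adjusted p = 0.00949, and 2.74, adjusted p = 0.00759). IL11, a cytokine of the IL6 family, was at 63, 26.2 and 44.1 against 9.93, 9.07 and 19.6 CPM and higher by a log2 fold change of 1.77 ± 0.44 (adjusted p = 0.0196). CSF1, the macrophage growth factor, was at 164, 131 and 163 against 81.1, 68.8 and 72.7 CPM and higher by a log2 fold change of 1.04 ± 0.26 (adjusted p = 0.0213). IL11 lost its call without control A, control B or IL-1β A (adjusted p = 0.118, 0.121 and 0.179). CSF1 lost it without control A, control B, control C, IL-1β A or IL-1β C (adjusted p = 0.0549, 0.0977, 0.101, 0.102 and 0.0675).

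Of 15 AP-1 and related factors 1 was called, beside 1.8% of all genes tested. This was JUN, the partner subunit of the AP-1 dimer, at 60.5, 52.2 and 35.7 CPM in IL-1β A, B and C and 23.6, 18.8 and 12.2 CPM in control A, B and C. Its log2 fold change was 1.45 ± 0.32 (adjusted p = 0.00786), a call lost without control C or IL-1β A (adjusted p = 0.0934 and 0.0669). FOSL1, a FOS-type subunit, had an estimate of 1.74 ± 0.54 that did not pass (adjusted p = 0.0927), with 70.8, 43.5 and 20.7 CPM in control A, B and C and 172, 198 and 77.9 CPM in the IL-1β libraries, which did not overlap. FOSL1 was called with the mitochondrial class as a covariate (1.91, adjusted p = 0.0205) and with the replicate block (1.75, adjusted p = 0.0229). Without both A libraries it was not called (2.10, adjusted p = 0.186).

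**Figure D2:**
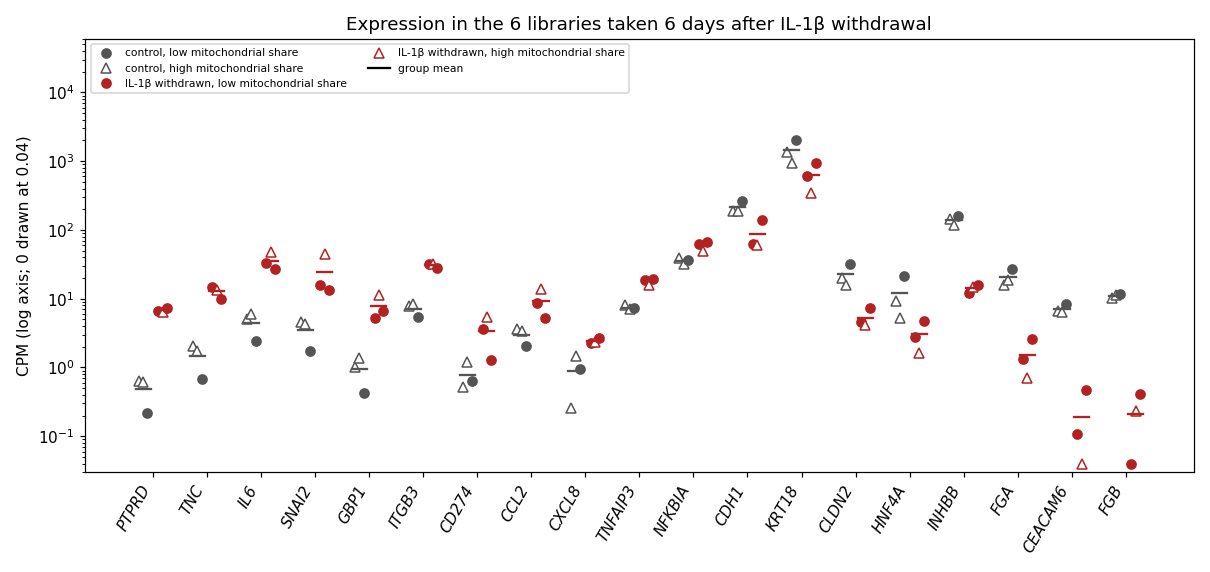
CPM on a log axis of 19 genes in the 6 libraries, control in grey and IL-1β-withdrawn in red, with open triangles for high-mitochondrial libraries and bars for group means. The 3 IL-1β values of INHBB, FGB and CEACAM6 lie below all 3 control values, those of PTPRD, IL6 and SNAI2 lie above them, and those of CXCL8 lie just above them.

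Of the EMT genes, 2 repressors were higher, while the commonly used mesenchymal markers VIM, CDH2 and FN1 did not pass the test. SNAI2, which encodes the E-cadherin repressor SLUG, was at 15.7, 44.9 and 13.5 CPM in IL-1β A, B and C and at 4.51, 4.23 and 1.72 CPM in control A, B and C, so that all 3 treated libraries were above the controls and IL-1β B was highest. Its log2 fold change was 2.86 ± 0.49 (adjusted p = 0.000552), against 3.23 ± 0.49 at day 21 (difference -0.37 ± 0.65, adjusted p = 1). By 15 and 30 days after withdrawal it was 1.23 (adjusted p = 0.313) and 0.80 (adjusted p = 0.732). ZEB2, a zinc finger repressor of the same targets, was at 14.3, 27.4 and 12.3 against 6.32, 9.59 and 4.08 CPM with a log2 fold change of 1.43 ± 0.40 (adjusted p = 0.0487), a call lost without control A, control C, IL-1β A or IL-1β B (adjusted p = 0.165, 0.277, 0.0764 and 0.319). The other 13 tested EMT factors and epithelial regulators were not called, and the list median was 0.10. VIM, the intermediate filament vimentin, was at 986, 1440.0 and 945 CPM in IL-1β A, B and C and 1064, 1045 and 660 CPM in control A, B and C, with overlap and a log2 fold change of 0.28 ± 0.24 (adjusted p = 0.941). CDH2, N-cadherin, gave 0.34 ± 0.17 (adjusted p = 0.518) and FN1, fibronectin, -0.49 ± 0.25 (adjusted p = 0.586). The FN1 values lay below the controls without overlap, at 145, 142 and 159 against 199, 183 and 244 CPM. FN1 was called lower 15 and 30 days after withdrawal (-1.07, adjusted p = 0.0261, and -1.74, adjusted p = 0.000291).

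Among junction genes 4 of 26 were lower and 0 higher, with a list median of -0.20 (0.725% of all genes tested were lower). CDH1 (ENSG00000039068, GRCh37 chr16:68771195-68869440), E-cadherin, was at 62.4, 61.2 and 138 CPM in IL-1β A, B and C and at 190, 191 and 260 CPM in control A, B and C. The groups did not overlap, with IL-1β C nearest to the controls. The log2 fold change was -1.29 ± 0.30 (adjusted p = 0.0105), against -2.24 ± 0.30 at day 21. The difference of 0.95 ± 0.41 did not pass the test. CDH1 was not called 15 and 30 days after withdrawal (-0.77, adjusted p = 0.323, and -0.61, adjusted p = 0.58). CLDN2, a claudin that forms cation pores in tight junctions, was at 4.53, 4.17 and 7.24 against 19.9, 16 and 31.7 CPM and lower with a log2 fold change of -2.08 ± 0.31 (adjusted p = 0.000123), and it was still called at 30 days (-1.80, adjusted p = 0.00117). CXADR, an adhesion protein of tight junctions, and CGN, cingulin, were lower with log2 fold changes of -1.27 ± 0.22 and -1.15 ± 0.23 (adjusted p = 0.000552 and 0.00241). The CDH1 call was lost without control C, IL-1β A or IL-1β B (adjusted p = 0.0845, 0.116 and 0.0883). That of CGN was lost without control C or IL-1β B (adjusted p = 0.0495 and 0.0281; log2 fold change -0.91 and -0.96 where the fold fell to 2 or less).

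KRT18, the epithelial keratin 18, was at 602, 343 and 927 CPM in IL-1β A, B and C and 1367, 940 and 2013 CPM in control A, B and C. The highest IL-1β value lay just under the lowest control value, and the log2 fold change was -1.21 ± 0.33 (adjusted p = 0.044). Its partner KRT8 overlapped between the groups and did not pass (-1.08 ± 0.31, adjusted p = 0.0552). KRT8 was called lower with the mitochondrial class as a covariate (-1.27, adjusted p = 0.000151) and with the replicate block (-1.09, adjusted p = 0.0103). Without both A libraries KRT8 was not called (-1.11, adjusted p = 0.289), and the KRT18 limits are given below. Both have many processed pseudogene copies that can share reads, which makes their counts uncertain. Exons on the opposite strand overlap 17.1% of KRT18 and 24.6% of VIM, and the strand setting of the counting is not given in the sources used here. KRT4 was lower with a log2 fold change of -2.26 ± 0.50 (adjusted p = 0.00786), and KRT81 and KRT86, hair keratins, were higher by a log2 fold change of 1.89 ± 0.25 and 1.83 ± 0.25 (adjusted p = 3.39e-05 and 3.39e-05). The last pair are near-identical genes between which reads can be divided, so they are uncertain as separate results. The KRT18 call was lost without control A, control C, IL-1β A or IL-1β B (adjusted p = 0.0882, 0.302, 0.187 and 0.257), and that of KRT4 without control C, IL-1β A or IL-1β B (adjusted p = 0.082, 0.0856 and 0.0537). Of 8 CEACAM and mucin glycoproteins 2 were lower. CEACAM6, an adhesion molecule of glandular epithelia, was at 0.109, 0 and 0.463 CPM against 6.71, 6.39 and 8.42 CPM, a log2 fold change of -4.98 ± 0.81 (adjusted p = 0.000348). MUC5B, a gel-forming airway mucin, was lower with a log2 fold change of -2.73 ± 0.61 (adjusted p = 0.00839), which was lost without IL-1β A (adjusted p = 0.0856).

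Among mesenchymal and matricellular genes, 4 of 21 were higher and none was lower, with a list median of 0.43. TNC, tenascin C, a matricellular glycoprotein, was at 15, 13.6 and 9.91 CPM in IL-1β A, B and C and 2.06, 1.73 and 0.687 CPM in control A, B and C, with a log2 fold change of 3.19 ± 0.51 (adjusted p = 0.000289). NT5E, the ecto-nucleotidase CD73, was higher by a log2 fold change of 1.85 ± 0.38 (adjusted p = 0.00351), a call lost without control C (adjusted p = 0.0529). FBN1, fibrillin 1, was called after withdrawal but not at day 21, with a log2 fold change of 1.35 ± 0.23 (adjusted p = 0.000643) against 0.59 ± 0.23 at day 21 (adjusted p = 0.156), but the difference of 0.76 ± 0.32 did not pass (adjusted p = 1). THBS1, thrombospondin 1, was just past the fold threshold at 1.00 ± 0.25 (adjusted p = 0.018) and lost its call without control A, control C, IL-1β A or IL-1β B (adjusted p = 0.053, 0.163, 0.129 and 0.0634).

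Of 21 integrin subunits 3 were higher and none lower, with a median of 0.27 (1.08% of all genes tested were higher). ITGB3, the β3 chain of the vitronectin receptor, was at 32.1, 32.1 and 27.9 CPM in IL-1β A, B and C against 7.74, 8.29 and 5.45 CPM in control A, B and C, and the narrow spread gave a log2 fold change of 2.11 ± 0.27 (adjusted p = 1.95e-05). Exons of another gene on the same strand overlap 33.2% of its exonic length, so part of its reads cannot be assigned with certainty. Its log2 fold change at day 21 was 2.16 ± 0.27, and it was still called 30 days after withdrawal (1.97, adjusted p = 8.32e-05). ITGA5, the fibronectin receptor α chain, and ITGB6, a chain of an epithelial integrin, were higher by a log2 fold change of 1.29 ± 0.36 and 1.37 ± 0.37 (adjusted p = 0.0439 and 0.0404). ITGA5 lost its call without control A, control B, control C, IL-1β A or IL-1β C (adjusted p = 0.0955, 0.241, 0.0775, 0.282 and 0.14). ITGB6 lost it without control A, control C, IL-1β A or IL-1β C (adjusted p = 0.201, 0.273, 0.162 and 0.118).

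Basement membrane genes moved both ways, 4 of 29 collagens and laminins higher and 2 lower. COL4A3 and COL4A4, collagen IV chains that assemble together and lie head to head, were both lower, with log2 fold changes of -2.12 ± 0.51 and -2.29 ± 0.45 (adjusted p = 0.0172 and 0.00235). COL4A5, another chain of that network, was higher by a log2 fold change of 1.61 ± 0.32 (adjusted p = 0.00278), at 14.1, 8.46 and 20.4 against 4.38, 3.8 and 5.8 CPM. COL17A1 and LAMB3, parts of the anchoring structure of basal epithelial cells, were higher by a log2 fold change of 2.58 ± 0.53 and 1.71 ± 0.35 (adjusted p = 0.004 and 0.0041), and the membrane collagen COL13A1 by 2.32 ± 0.48 (adjusted p = 0.00403). The calls of COL4A3, COL4A4, COL17A1 and COL13A1 were lost in turn without control C, IL-1β A or IL-1β B (adjusted p = 0.225, 0.158 and 0.0927), without control C (adjusted p = 0.0611), without control C (adjusted p = 0.0578) and without IL-1β A (adjusted p = 0.0624). The called members of 18 matrix proteases and inhibitors included the metalloprotease ADAM19, higher by a log2 fold change of 1.16 ± 0.16 (adjusted p = 3.88e-05), and ADAMTS6, higher at least 2.61-fold (adjusted p = 0.0242), while MMP7, matrilysin, was lower with a log2 fold change of -2.10 ± 0.45 (adjusted p = 0.00649). ADAMTS6 lost its call without control A, control B, control C or IL-1β A (adjusted p = 0.0648, 0.0982, 0.147 and 0.272) and MMP7 without IL-1β A (adjusted p = 0.0895).

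Immune genes outside the chemokines that remained high included both PD-1 ligands. PDCD1LG2, which encodes PD-L2, was at 1.53, 0.928 and 0.695 CPM in IL-1β A, B and C and at 0.129, 0 and 0 CPM in the controls, 1 count or none in each, and so at least 4.07-fold higher (adjusted p = 0.00127). CD274, which encodes PD-L1, was at 3.6, 5.45 and 1.27 CPM in IL-1β A, B and C and 0.516, 1.21 and 0.644 CPM in control A, B and C. IL-1β C stood barely above the highest control, and the log2 fold change was 2.07 ± 0.51 (adjusted p = 0.0201), a call lost without control A, control C, IL-1β A or IL-1β B (adjusted p = 0.0986, 0.158, 0.0882 and 0.139). CD274 was not called 15 or 30 days after withdrawal (0.70 and 0.73, adjusted p = 0.801 and 0.78). PDCD1LG2 was called at 15 days but not at 30 days (adjusted p = 0.0177 and 0.739). The other 16 tested members of this list, which holds the MHC class I presentation genes, were not called, with a list median of 0.47. GBP1, an interferon-induced GTPase, was at 5.3, 11.5 and 6.72 against 1.03, 1.38 and 0.429 CPM and higher by a log2 fold change of 3.12 ± 0.54 (adjusted p = 0.000658), with GBP3 at 2.2 ± 0.41 and OASL at 1.47 ± 0.40 (adjusted p = 0.00133 and 0.0427). These 3 were the called members of 29 interferon response genes, beside 1.8% called of all genes tested. OASL lost its call without control A, control B, IL-1β A, IL-1β B or IL-1β C (adjusted p = 0.203, 0.146, 0.133, 0.0669 and 0.12). GBP1 and GBP3 belong to a gene family with similar members. TLR4, the endotoxin receptor, was higher by a log2 fold change of 2.28 ± 0.58 (adjusted p = 0.0253), and the adhesion molecule L1CAM by 2.05 ± 0.37 (adjusted p = 0.00106). TLR4 had not been called at day 21 (1.63 ± 0.58, adjusted p = 0.111), and its difference from day 21, 0.64 ± 0.86, did not pass. TLR4 lost its call without control A, control C, IL-1β A or IL-1β B (adjusted p = 0.0783, 0.222, 0.0666 and 0.0848).

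**Figure D3:**
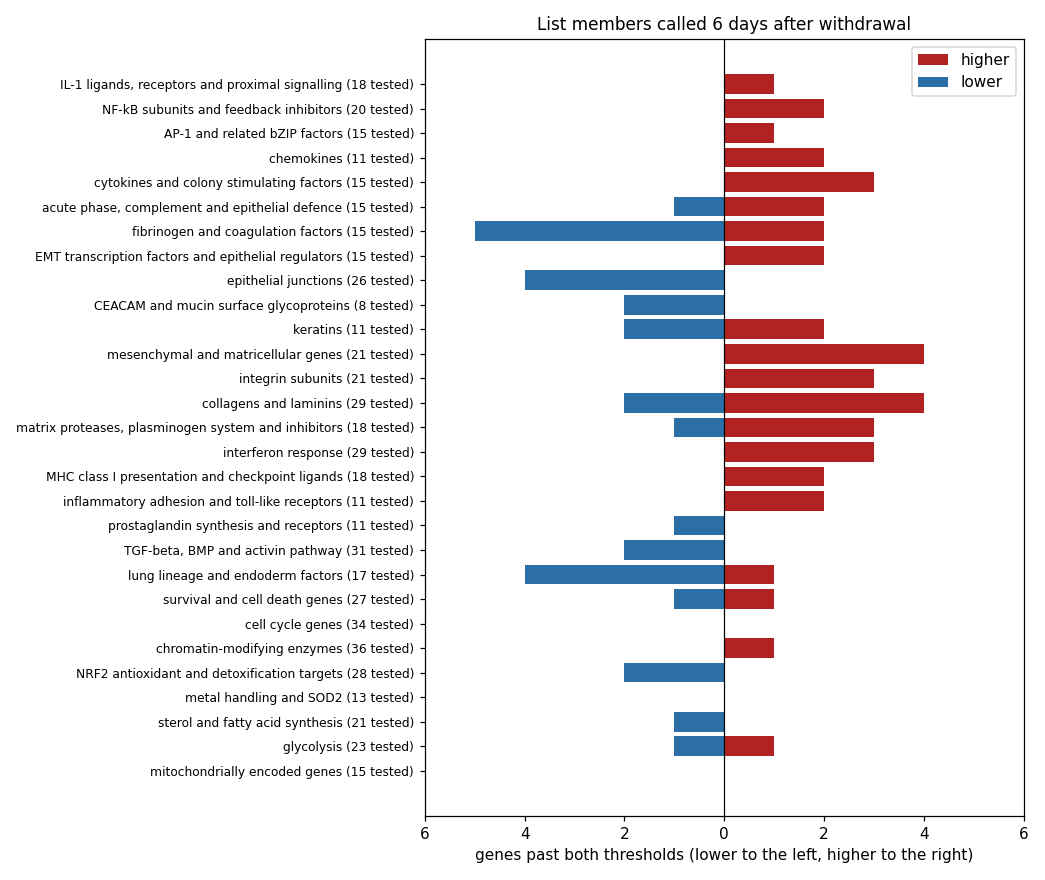
Number of members called higher (red, right) and lower (blue, left) 6 days after withdrawal in 29 gene lists, with the number tested beside each name. The longest bar is that of 5 lower fibrinogen and coagulation genes, and cell cycle, metal handling and mitochondrially encoded genes have no bar.

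Of 15 tested fibrinogen and coagulation factor genes, 5 were lower and 2 were higher, with a list median of -1.07. All 3 fibrinogen chains, which are secreted together as the clotting protein, were lower. FGB was at 0, 0.232 and 0.405 CPM in IL-1β A, B and C and at 10.2, 11.4 and 11.6 CPM in control A, B and C, a log2 fold change of -5.70 ± 0.61 (adjusted p = 1.53e-06). FGA was at 1.31, 0.696 and 2.61 against 15.7, 18.6 and 27.1 CPM, lower with a log2 fold change of -3.67 ± 0.47 (adjusted p = 1.95e-05), and FGG, with no IL-1β library above 3 counts, was at least 4.08-fold lower (adjusted p = 0.0167). Neither FGB nor FGA had an IL-1β library near a control. APOH, a phospholipid-binding plasma protein, was lower with a log2 fold change of -2.60 ± 0.46 (adjusted p = 0.000847), and coagulation factor F5 at least 3.08-fold (adjusted p = 0.0421). In the same list, F3, tissue factor, and THBD, thrombomodulin, which are cell surface proteins, were higher by a log2 fold change of 1.34 ± 0.30 and 1.12 ± 0.29 (adjusted p = 0.00918 and 0.025). Neither was called at day 21 (0.66 and 0.85, adjusted p = 0.258 and 0.064), and neither difference from day 21 passed. FGB, FGA and APOH were still called 30 days after withdrawal (-2.83, -1.78 and -2.57, adjusted p = 0.000752, 0.0233 and 0.00127). F5 was also called lower at day 21 and 15 and 30 days after withdrawal (adjusted p = 0.00128, 0.00336 and 0.000864). FGG was not called at 30 days (adjusted p = 0.576). FGG lost its call without control C, IL-1β A or IL-1β B (adjusted p = 0.1, 0.146 and 0.0541), F3 without control C or IL-1β A (adjusted p = 0.121 and 0.0962) and THBD without control A, control B, IL-1β A or IL-1β C (adjusted p = 0.0916, 0.152, 0.144 and 0.0544). F5 lost it without control A, control B, control C, IL-1β A, IL-1β B or IL-1β C (adjusted p = 0.0566, 0.0924, 0.186, 0.269, 0.0893 and 0.108).

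Of 15 tested acute phase, complement and epithelial defence genes, 2 were higher and 1 was lower, with a list median of 0.45. The lower one, the antimicrobial defensin DEFB1, was at 0.0546, 0 and 0.811 CPM in IL-1β A, B and C and 12.2, 9.59 and 31.2 CPM in control A, B and C, a log2 fold change of -5.73 ± 0.70 (adjusted p = 1.04e-05). Outside the list, FGL1, a fibrinogen-like liver protein, was lower with a log2 fold change of -3.39 ± 0.52 (adjusted p = 0.000174). Of the acute phase genes that inflammation raises in the liver, SAA1 had 0 counts in all controls and was at 0.601, 0.232 and 0.811 CPM in IL-1β A, B and C, at least 2.12-fold higher (adjusted p = 0.0118), and SERPINA1, the elastase inhibitor α1-antitrypsin, was higher by a log2 fold change of 2.43 ± 0.61 (adjusted p = 0.0218). SAA1 lost its call without control C (adjusted p = 0.131) and SERPINA1 without control B, control C, IL-1β A or IL-1β B (adjusted p = 0.102, 0.213, 0.0643 and 0.0662). LCN2, an iron-sequestering defence protein, had gone from 3.19 ± 0.52 at day 21 to -1.71 ± 0.67, with 0.0546, 0 and 0.753 CPM in IL-1β A, B and C and 1.16, 0.605 and 1.25 CPM in control A, B and C. The groups overlapped and the value after withdrawal did not pass (adjusted p = 0.285), but the difference of -4.90 ± 0.84 from day 21 did (adjusted p = 0.0038).

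Of 17 endoderm and lung lineage factors, 4 were lower and 1 was higher, with a list median of -0.30. HNF4A, a nuclear receptor that drives liver-type genes, was at 2.73, 1.62 and 4.75 CPM in IL-1β A, B and C and at 9.16, 5.18 and 21.6 CPM in control A, B and C. The groups did not overlap, and the log2 fold change was -1.96 ± 0.43 (adjusted p = 0.0076). FOXA1, a pioneer factor of endoderm, and SOX2, a factor of progenitor cells, were lower with a log2 fold change of -1.16 ± 0.26 and -1.08 ± 0.26 (adjusted p = 0.01 and 0.0188). RUNX2, a bone and EMT-linked factor, was higher by a log2 fold change of 1.20 ± 0.20 (adjusted p = 0.000515), at 29.1, 34.2 and 20.7 against 14.4, 12.9 and 9.49 CPM. HNF4A lost its call without control C, IL-1β A or IL-1β B (adjusted p = 0.214, 0.065 and 0.0555) and FOXA1 without control C or IL-1β A (adjusted p = 0.138 and 0.0648). SOX2 lost it without control A, control C, IL-1β A or IL-1β B (adjusted p = 0.0538, 0.0743, 0.181 and 0.0638). PPARGC1A, a coactivator of mitochondrial biogenesis genes, was lower with a log2 fold change of -4.31 ± 0.77 (adjusted p = 0.000936), at 0, 0.116 and 0.29 against 2.06, 3.2 and 3.13 CPM.

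In the TGF-β, BMP and activin pathway 2 of 31 genes were lower and none was higher, a count to be read beside the 1.8% called of all genes tested. INHBB (ENSG00000163083, GRCh37 chr2:121103712-121109379), the βB chain of activin, was at 12.2, 14.7 and 16 CPM in IL-1β A, B and C against 145, 118 and 161 CPM in control A, B and C. Its log2 fold change of -3.31 ± 0.21 had an adjusted p of 3.14e-11. It had come part of the way back from day 21, when it was -4.97 ± 0.23, with a difference of 1.66 ± 0.28 (adjusted p = 0.00307), and it stood at -2.36 and -1.64 15 and 30 days after withdrawal. BMP4 was lower with a log2 fold change of -1.44 ± 0.33 (adjusted p = 0.0105), a call lost without control C, IL-1β A or IL-1β B (adjusted p = 0.1, 0.0612 and 0.0718). TGFB1 was at 129, 63.1 and 105 against 117, 68.4 and 106 CPM, with overlap and a log2 fold change of 0.04 ± 0.32 (adjusted p = 1), and the inhibitory SMAD6 did not pass at -0.84 ± 0.24 (adjusted p = 0.0585).

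Of the 12 largest increases among protein-coding genes at 1 CPM or more, 8 are not described above. PTPRD, a receptor phosphatase, was at 6.72, 6.49 and 7.3 CPM in IL-1β A, B and C and 0.645, 0.605 and 0.215 CPM in control A, B and C, a log2 fold change of 3.96 ± 0.42 (adjusted p = 1.53e-06), and it was 3.53 at 30 days (adjusted p = 1.31e-05). NFASC, the axonal adhesion protein neurofascin, was at 19.8, 13.8 and 13 against 2.71, 1.38 and 1.37 CPM, higher by a log2 fold change of 3.15 ± 0.34 (adjusted p = 1.53e-06). PLPP4, a lipid phosphate phosphatase, gave 4.11 ± 0.57 (adjusted p = 5.72e-05), BHLHE41, a circadian repressor, 3.30 ± 0.54 (adjusted p = 0.000404), RRAD, a small GTPase, 3.12 ± 0.54 (adjusted p = 0.000644) and INSYN2B 3.46 ± 0.73 (adjusted p = 0.00525). Control A, B and C held 0, 1 and 5 counts of PLPP4, 5, 0 and 4 of RRAD and 4, 8 and 6 of INSYN2B. With so few counts the sizes of these 3 changes are uncertain. PRUNE2 and TMEM171 were at least 5.67-fold and 5.27-fold higher (adjusted p = 0.00515 and 0.00183), since no control library had more than 3 counts. INSYN2B lost its call without control C (adjusted p = 0.0775), PRUNE2 without control C (adjusted p = 0.103) and TMEM171 without control C (adjusted p = 0.0513).

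The decreases of the same rank included CPLX2, complexin 2, a regulator of vesicle fusion, at 70.2, 51.4 and 141 CPM in IL-1β A, B and C and 723, 499 and 1090.0 CPM in control A, B and C. Its log2 fold change was -3.14 ± 0.42 (adjusted p = 3e-05). GPX2, an epithelial glutathione peroxidase, was lower with a log2 fold change of -3.30 ± 0.52 (adjusted p = 0.000237), HGD, an enzyme of tyrosine breakdown, with -2.95 ± 0.55 (adjusted p = 0.00145) and UPK1B, a uroplakin, with -2.88 ± 0.40 (adjusted p = 4.48e-05). RASSF9 was at least 4.52-fold lower (adjusted p = 0.00333). HGD lost its call without control C (adjusted p = 0.0858) and RASSF9 without IL-1β A (adjusted p = 0.0521).

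Proliferation genes did not pass the test as single genes. None of 34 cell cycle genes was called, 4 had an unadjusted p under 0.05, and their median log2 fold change was -0.15. Since 1.8% of all genes tested were called, no call in a list of this size does not set these genes apart. Without the high-mitochondrial libraries 1 of them was called higher and 1 lower, and with the class as a covariate 0 and 2. Of 36 chromatin-modifying enzymes 1 was called, the histone deacetylase HDAC9, at 5.79, 9.51 and 4.69 CPM in IL-1β A, B and C against 0.903, 3.54 and 1.16 CPM in control A, B and C, without overlap. Its log2 fold change was 1.82 ± 0.40 (adjusted p = 0.00841), a call lost without control A, control C or IL-1β B (adjusted p = 0.0681, 0.105 and 0.0626). Among 27 survival and cell death genes, the anti-apoptotic BCL2A1 was higher by a log2 fold change of 1.87 ± 0.48 (adjusted p = 0.0276) and the pro-apoptotic BMF lower with a log2 fold change of -1.95 ± 0.51 (adjusted p = 0.0311). BCL2A1 lost its call without control C, IL-1β A or IL-1β B (adjusted p = 0.208, 0.0757 and 0.16), and BMF without control A, control C, IL-1β A, IL-1β B or IL-1β C (adjusted p = 0.0698, 0.214, 0.153, 0.126 and 0.0643). MAP4K1, a kinase upstream of JNK, was not called (-0.33 ± 0.31, adjusted p = 0.985).

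Single genes were called in the metabolic lists, with counts to be read beside the 1.8% called of all genes tested. Among 23 glycolysis genes HK1, hexokinase 1, was higher by a log2 fold change of 1.24 ± 0.21 (adjusted p = 0.000471) and SLC2A3, the glucose transporter GLUT3, was lower with a log2 fold change of -1.88 ± 0.28 (adjusted p = 0.000121), at 40.8, 40.8 and 67.4 against 171, 183 and 196 CPM. Of 28 NRF2 targets the aldo-keto reductases AKR1C2 and AKR1C3, which are near-identical in sequence, were lower with a log2 fold change of -1.37 ± 0.26 and -1.11 ± 0.24 (adjusted p = 0.00144 and 0.0067). SCD, the fatty acid desaturase, was the 1 of 21 lipid synthesis genes called (-1.27 ± 0.33, adjusted p = 0.0273), with a list median of -0.42. HPGD, the enzyme that inactivates prostaglandins, was the 1 of 11 called in its pathway (-1.20 ± 0.27, adjusted p = 0.00869). AKR1C3 lost its call without control C, IL-1β A or IL-1β B (adjusted p = 0.108, 0.0589 and 0.0641), SCD without control C, IL-1β A or IL-1β B (adjusted p = 0.163, 0.197 and 0.143) and HPGD without IL-1β A (adjusted p = 0.0908). None of the 15 mitochondrially encoded genes or 13 metal handling genes was called, and 0 and 2 of them had an unadjusted p under 0.05.

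Set against day 21, when 817 genes (4.26%) were called, the response after withdrawal held fewer called genes. Of the 346 genes, 293 were called in the same direction at day 21, which is 84.7% of those called after withdrawal and 35.9% of those called at day 21. A further 52 were called after withdrawal alone, 51 of them with the same sign at day 21, and 523 were called at day 21 alone. The difference itself passed the test for 1 of the 52 and 18 of the 523. The 1 gene was MATN2, matrilin 2, a matrix adaptor protein. It was at 62.7, 64 and 77.8 CPM in IL-1β A, B and C and 25.9, 25.6 and 21.4 CPM in control A, B and C after withdrawal, a log2 fold change of 1.49 ± 0.19 (adjusted p = 1.43e-05). At day 21 the IL-1β cells were at 26.7 ± 1.41 CPM and the controls at 25.9 ± 1.67 CPM (SD, n = 3), and the difference of 1.45 ± 0.26 passed the test (adjusted p = 0.00519).

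One gene was called in opposite directions. AFAP1L2, an adaptor of SRC-type kinases, was lower at day 21 (-1.02 ± 0.24, adjusted p = 0.00512) and higher after withdrawal (1.27 ± 0.23, adjusted p = 0.00127), at 12, 8.93 and 8.69 CPM in IL-1β A, B and C against 4.0, 4.49 and 3.82 CPM in control A, B and C. The difference was 2.29 ± 0.33 (adjusted p = 0.000558). LBH, REEP1 and GFRA1, which had been lower at day 21, no longer passed after withdrawal, and their rise since day 21 passed the test. LBH, a transcriptional cofactor, went from -3.26 ± 0.38 to -0.31 ± 0.34 (difference 2.95 ± 0.51, adjusted p = 0.0038), REEP1, a shaper of endoplasmic reticulum, from -2.39 ± 0.30 to 0.12 ± 0.28 (difference 2.51 ± 0.41, adjusted p = 0.00266) and GFRA1, a GDNF receptor, from -2.11 ± 0.17 to -0.58 ± 0.17 (difference 1.53 ± 0.24, adjusted p = 0.00122). LBH and REEP1 overlapped between the groups after withdrawal, while the 3 GFRA1 values stayed below the controls, at 22.8, 23.3 and 21.3 against 33.5, 36.4 and 31.3 CPM. REEP1 lost its difference call without IL-1β A (adjusted p = 0.0572). C15orf48, a small mitochondrial protein induced in inflammation, fell from 5.02 ± 0.46 to 1.47 ± 0.43 (difference -3.55 ± 0.60, adjusted p = 0.00346), with no overlap between 9.5, 8.7 and 11.1 CPM in IL-1β cells and 3.74, 4.15 and 2.88 CPM in controls. The value after withdrawal did not pass (adjusted p = 0.0662), nor did it with the replicate block (adjusted p = 0.0633). With the mitochondrial class as a covariate it was called (1.64, adjusted p = 0.0127). Exons of another gene on the same strand overlap 21.6% of C15orf48.

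**Figure D4:**
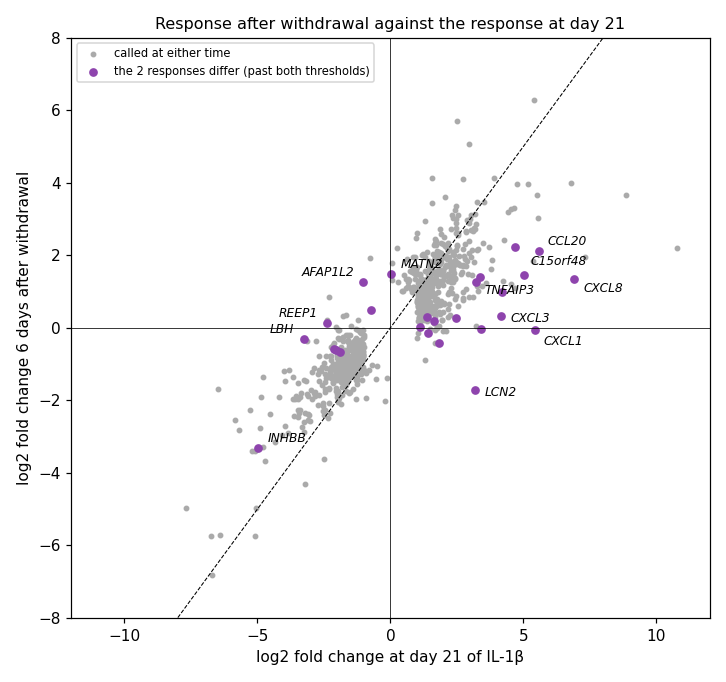
Log2 fold change 6 days after withdrawal (y axis) against that at day 21 of exposure (x axis) for the 870 genes called at either time or in the difference, each point a gene and the dashed line equal values. The 26 genes whose 2 responses differed are purple, with CXCL8, CXCL1, CXCL3 and LCN2 far below the line and AFAP1L2 in the upper left part.

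Of the 207 genes higher 6 days after withdrawal, 88 were called higher at 15 days and 55 at 30 days, and of the 139 lower genes 56 and 55 were called lower. Those collections had their own controls. The share of all genes tested that was called at 15 and 30 days is not given here, so these counts have no base beside them. At 15 days control B, control C and IL-1β B were high-mitochondrial (24.6%, 22.4% and 15.3%). At 30 days control B and IL-1β B were (23.2% and 12.2%). What part this has in the fewer calls was not tested.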

How the data were processed

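The deposited values are whole read counts per Ensembl gene, which the authors obtained from single-end HiSeq reads aligned to GRCh37 and counted with HTSeq. The submitters' processing notes name bcl2fastq 2.17, TopHat2 2.0.14, Bowtie2 2.2.5 and HTSeq 0.6.1. The kit was strand-specific, and the strand setting of the counting and the annotation release are not given in the sources used here. The summary lines of the counter were left out of library sizes. In the 6 libraries, 8.96% to 18.6% of reads fell outside genes and 2.62% to 4.14% could not be assigned to 1 gene, and 9116032 to 21653670 counts on genes set the precision. Pairs of libraries of a group differed by far more than sampling noise (chi-square per degree of freedom 11.9 to 208), so none was taken as a duplicate.

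Groups came from the labels. Genes with enough counts by edgeR's filterByExpr over the 12 groups were kept (19180 of 63677 listed, of which 39471 had a count). After TMM scaling, edgeR 4.0.16's quasi-likelihood model (limma 3.58.1, R 4.3.3) was fitted to all 36 libraries, with 24 residual degrees of freedom. The contrasts were IL-1β against control 6 days after withdrawal, and its difference from day 21. Adjusted p-values are Benjamini-Hochberg values over all genes tested, and a gene was called if that value was under 0.05 and its fold change exceeded 2. CPM use the same scaling, log2 fold changes are given ± SE, and a group with 3 or fewer counts in every library was set to 3 counts per library for a bound, which covers counting error only. Symbols and positions were matched by identifier to GENCODE v44lift37 for 18611 tested genes, and promoters by symbol to RefSeq (GRCh38.p14). Promoters on chromosome 8 were not used here. The scripts were tested on simulated data.

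Named genes were the 12 largest increases and decreases among protein-coding called genes with at least 1 CPM in the higher group and no overlap, up to 8 called members per list, the 6 largest differences from day 21 in each direction, and fixed genes of interest. Some genes that the rule names are not reported here. SMPD3, SLC22A4, KRT8, KRT19 and the remaining difference genes were named after their values were seen. The members, lists and tests were chosen with earlier results of these data known. The values within library classes and without both A libraries were added after seeing the data. Other settings tried were DESeq2 1.42.0's Wald test and size factors, total counts, other filters and thresholds, the likelihood ratio test, a separate fit, the replicate block, the mitochondrial class as a covariate, and each library left out.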

Additional observations from a re-analysis of the deposited data

Results flagged for a closer look

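The response to IL-1β differed between 6 days after withdrawal and day 21 in a test of the difference itself (edgeR's quasi-likelihood test, adjusted p under 0.05 and a fold over 2) for 26 genes, each given here as the log2 response after withdrawal minus that at day 21. Of the chemokines, CXCL8 had -5.55, CXCL1 -5.48, CXCL3 -3.84, CCL20 -3.45, CXCL2 -3.21 and CXCL5 -2.19. Of the NF-κB subunits and feedback inhibitors listed, ZC3H12A had -3.44, NFKBIZ -2.26, TNFAIP3 -1.93 and TNIP1 -1.45. The defence protein LCN2 had -4.90 and the mitochondrial protein C15orf48 -3.55. The GABA-degrading enzyme ABAT had -2.43, PID1 -1.97, the zinc finger gene ZNF792 -1.56, the actin-binding SVIL -1.11 and the mitochondrial iron transporter SLC25A37 -1.07.

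The response was higher after withdrawal than at day 21 for the other 9. LBH had 2.95, REEP1 2.51, AFAP1L2 2.29, INHBB 1.66, GFRA1 1.53, MATN2 1.45, the kinase DAPK1 1.44, the protease PRSS23 1.20 and the aldo-keto reductase AKR1B10 1.20. Without each of the 6 libraries in turn, 18 of the 26 were called every time. The other 8 lost the call without at least 1 library: ABAT and ZC3H12A without control C (adjusted p = 0.0863 and 0.052), REEP1 without IL-1β A (0.0572), CCL20 without control A or C (0.0832 and 0.116), DAPK1 without control A or IL-1β C (0.059 and 0.0693), and AKR1B10, PID1 and SVIL without 3, 4 and 4 libraries (adjusted p from 0.0523 to 0.112).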

How the results depend on the processing

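The count of 346 genes (207 higher, 139 lower) became 1 (0 higher, 1 lower) in a fit of the 6 libraries alone. There, 946 of 16637 genes tested had an unadjusted p under 0.05. The count was 175 (110 and 65) in a test against a fold change of 1.5. It was 222 (136 and 86) at an adjusted p under 0.01, 538 with 242 lower genes with the mitochondrial class as a covariate, and 231 genes were lower with that covariate and the replicate block. With at least 10 counts in every library 136 genes were higher, and with the adjusted p alone 311. Within the high-mitochondrial and low-mitochondrial libraries 258 and 216 genes were lower. Without 1 library, or without both A libraries, the counts ranged from 172 to 392, from 108 to 220 higher and from 64 to 172 lower, with 206 without IL-1β A, 195 without control C and 172 without both A libraries. Of the 346 genes 146 were called without each library in turn, and of the 88 called genes chosen by the naming rule 40 were. DESeq2's Wald test called 380. The 26 differences from day 21 became 40 by the likelihood ratio test, 12 in a separate fit, 48 with the covariate, 50 with the covariate and the block, 16 against a fold change of 1.5 and 45 by DESeq2's Wald test, and ranged from 13 (without both A libraries) to 29 with libraries left out.

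The replicate letters did not pair the samples by the rule set, since the deviations from the group means of same-lettered libraries correlated at -0.11 (A), 0.70 (B) and 0.72 (C) across genes, and IL-1β A correlated best with control C. With the replicate block, 381 genes (220 higher, 161 lower) were called in the joint fit and 281 in the separate fit, and 34 and 24 differences from day 21.

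None of these 88 genes changed direction under any alternative run. Uncalled genes near 0 did. TGFB1 went from 0.04 to -0.17 with the covariate, -0.18 with the covariate and the block and -0.55 within the high-mitochondrial libraries, and from -0.20 to 0.27 with libraries left out. IL1R1 went from -0.05 to 0.01 with total counts, 0.04 with the covariate, 0.03 with the covariate and the block and 0.11 within the high-mitochondrial libraries, and from -0.15 to 0.11 with libraries left out. CXCL1 went from -0.06 to 0.01 with total counts, and from -0.35 to 0.25 with libraries left out. The range with libraries left out was -0.07 to 0.52 for CXCL3, -0.86 to 0.00 for LBH and -0.19 to 0.24 for REEP1. The cause of these changes was not tested, other than that fewer libraries or degrees of freedom entered some fits. The depth of the shallowest library, 9116032 counts, limits what can be seen of genes near 3 counts, and 23 called genes had a group at that level.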
